A study of Saccharomyces cerevisiae with 6 samples.

Results

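The histidine biosynthesis genes of budding yeast, HIS1 to HIS7, encode the enzymes that make the amino acid histidine, and their transcripts were compared between methanol-treated and untreated cultures. The members are 7 genes chosen by name, each matched to the array by the gene symbol of its spot. A spot was found for 6 of the 7, out of 5379 genes with a named spot, and all 6 had a value on every array. HIS3, which encodes the dehydratase in the middle of the pathway, matched no named spot and is not analysed here. The set was picked with earlier results of the same arrays known.

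The strain, Saccharomyces cerevisiae S288C, is a haploid that can make its own histidine. It grew in YPD, a rich glucose medium whose peptone and yeast extract supply amino acids, at 25 °C. Treated cultures received methanol to a final 5% at an optical density of 1 and were exposed for 2 h, and untreated cultures grew for the same 2 h. Poly(A) RNA of the treated culture was labelled with Cy5 and that of the untreated culture with Cy3, and each pair was hybridised to a 2-colour array. There were 3 arrays of independent biological samples, numbered 1 to 3, each read once at high and once at low laser power, and both scans of an array counted as 1 replicate.

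Values are log2 ratios of methanol over untreated, set so that the median gene of an array is 0. The deposited ratios state neither their log base nor their direction. Base 2 was assumed, and methanol over untreated is the likely direction because the treated RNA is the Cy5 channel and is listed as channel 1. With the opposite direction every sign below would turn, and with another base the folds would change but not the tests. The dyes were not swapped, so a dye effect of a gene stays in its ratio. Each value is an average over a culture, so fewer cells that express a gene and less RNA per cell cannot be told apart. Pearson's r across the 4336 genes tested was 0.826 between arrays 1 and 2, 0.888 between arrays 1 and 3 and 0.821 between arrays 2 and 3. Array 2 had values for the fewest genes, 4399, against 5166 on array 1 and 5339 on array 3.

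Histidine is built on phosphoribosyl pyrophosphate (PRPP) and ATP. The enzyme encoded by HIS1 joins them in the committed step and is inhibited by histidine itself. Downstream enzymes open and rearrange the purine ring, and the remains of the ATP leave as AICAR, an intermediate of purine synthesis. In yeast the HIS genes are textbook targets of Gcn4, the activator that raises amino acid synthesis genes when amino acids are short, and HIS4 and HIS7 also of Bas1 and Pho2, which act on purine synthesis genes.

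Of the 6 histidine genes tested, 5 were lower in methanol, 0 were higher and HIS2 was not called (limma, adjusted p under 0.05 over all genes tested). Over all 4336 genes tested, 24.2% were called lower and 26% higher. HIS1, HIS4, HIS5, HIS6 and HIS7, the 5 called genes, were below 0 on all 3 arrays, as were 35.9% of all genes tested. Without replicate 1, 3 of the 6 were lower, HIS1, HIS4 and HIS6, and 13.1% of all genes tested. The median of the 6 members was −0.78, against −0.01 for all genes tested. Among members, 2 were called lower by at least 2-fold, HIS1 and HIS6, and 5.63% of all genes tested were. The means of the 6 genes spanned 1.94 on the log2 scale, from HIS1 at the low end to HIS2 at the high end.

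**Figure D1:**
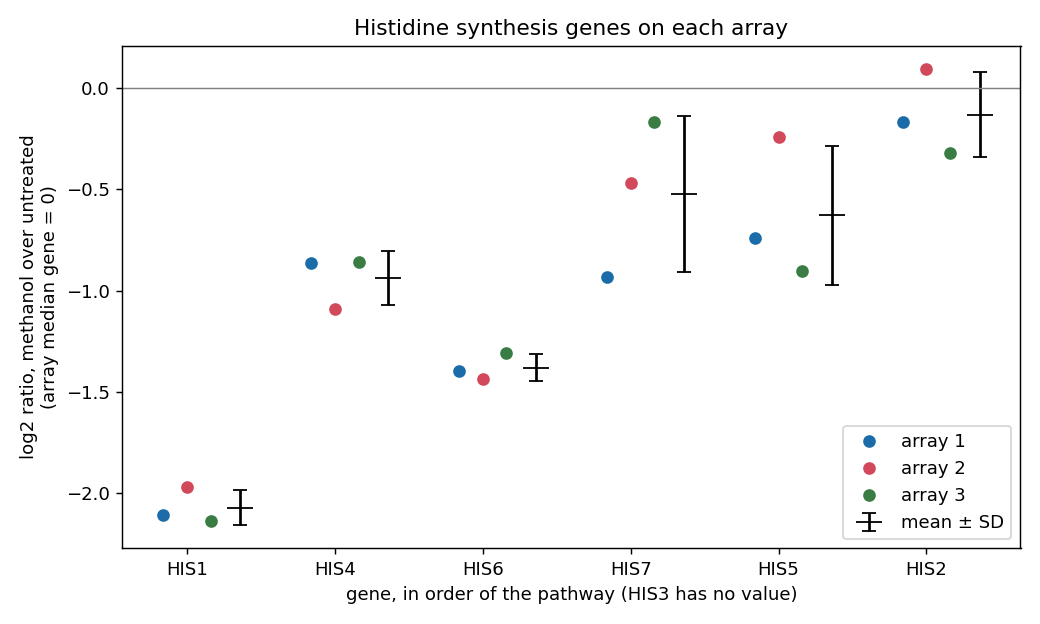
Log2 ratio of methanol over untreated (vertical axis) of each histidine gene on arrays 1, 2 and 3 (coloured points), with the mean and SD over the 3 arrays in black, in order of the pathway. HIS1 lies near −2 on every array, HIS6 and HIS4 lie lower than HIS5, HIS7 and HIS2 in the mean, and HIS2 on array 2 is the only point above 0.

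HIS1 (YER055C), the gene of ATP phosphoribosyltransferase, had log2 ratios of −2.11, −1.97 and −2.13 on arrays 1, 2 and 3. These values lay close together, and HIS1 was the lowest member on each array. Its mean was −2.07 ± 0.09 (SD, n = 3; limma adjusted p = 5.34e-05), which is 23.8% of the untreated level or 4.20-fold lower, with a 95% interval of 3.44-fold to 5.12-fold. Among the genes tested it ranked 6 from the lowest.

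HIS4 (YCL030C) encodes an enzyme with several activities, which opens the adenine ring after the step of HIS1 and also makes histidine itself in the last step. Its log2 ratios were −0.87, −1.09 and −0.86 on arrays 1, 2 and 3, so it was lowest on array 2. The mean of −0.94 ± 0.13 (SD, n = 3; limma adjusted p = 0.000994) put HIS4 at 52.2% of the untreated level.

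HIS6 (YIL020C), the gene of the isomerase that acts after the ring is opened, stood at −1.40, −1.44 and −1.31 on arrays 1, 2 and 3. The median SD of all genes tested was 0.22, and 6.92% of them had an SD no larger than the 0.07 of HIS6. The mean of −1.38 ± 0.07 (n = 3; limma adjusted p = 0.000157) is 38.4% of the untreated level.

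HIS7 (YBR248C), the gene of the glutamine-using synthase that closes the imidazole ring and releases AICAR, had −0.93, −0.47 and −0.17 on arrays 1, 2 and 3. All 3 values were below 0, but they spread more than those of HIS1, HIS4 or HIS6. The mean was −0.52 ± 0.38 (SD, n = 3; limma adjusted p = 0.0327), or 69.6% of the untreated level. The call was lost without replicate 1, where the mean was −0.32 (limma adjusted p = 0.231), and without replicate 2 (mean −0.55, adjusted p = 0.0703).

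HIS5 (YIL116W), the gene of the aminotransferase that takes its amino group from glutamate, had −0.74, −0.24 and −0.90 on arrays 1, 2 and 3, and array 2 stood nearest to 0. The mean was −0.63 ± 0.34 (SD, n = 3; limma adjusted p = 0.0132), or 64.7% of the untreated level. Without replicate 1 the mean was −0.57 (limma adjusted p = 0.107) and without replicate 3 it was −0.49 (adjusted p = 0.0957), and both lost the call.

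HIS2 (YFR025C), the gene of the phosphatase that precedes the last enzyme, had −0.17, 0.09 and −0.32 on arrays 1, 2 and 3. It was the only member whose values lay on both sides of 0. Its mean of −0.13 ± 0.21 (SD, n = 3) missed the threshold (limma adjusted p = 0.444), and the 95% interval of −0.45 to 0.18 leaves room for a modest difference in either direction.

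**Figure D2:**
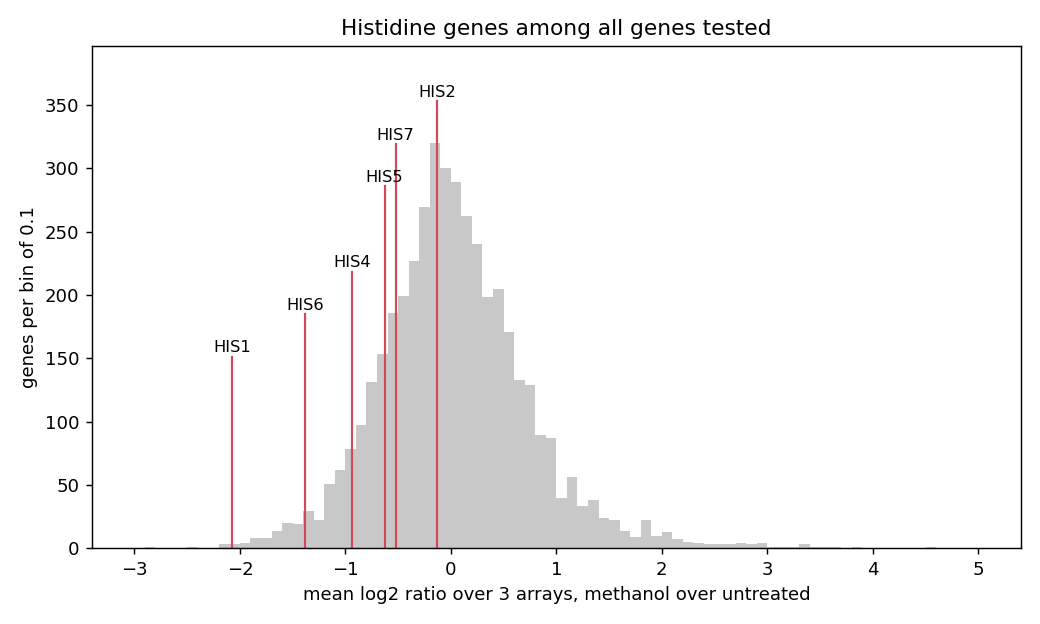
Number of genes (vertical axis) by mean log2 ratio of methanol over untreated in bins of 0.1 (grey), for the 4336 genes tested, with red lines at the means of the 6 histidine genes (line height has no meaning). HIS1 sits in the low tail at −2.07, and HIS2 lies near the peak at −0.13.

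All 6 members were below 0 on arrays 1 and 3, and 5 of 6 on array 2. By the centring, as many genes of an array lie below 0 as above it. Member medians were −0.90, −0.78 and −0.88 on arrays 1, 2 and 3, so the group shifted by a similar amount on each array. The members did not share 1 order of arrays: HIS1, HIS5 and HIS2 were highest on array 2, whereas HIS4 and HIS6 were lowest there.

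From lowest to highest mean the order was HIS1, HIS6, HIS4, HIS5, HIS7 and HIS2. HIS1 minus HIS6 was −0.69 ± 0.15 (SD of the within-array difference) on the log2 scale and HIS6 minus HIS4 −0.44 ± 0.09, each below 0 on 3 of 3 arrays and with ranges that did not overlap. Further up the order, neighbours did not differ beyond their spread: HIS4 minus HIS5 was −0.31 ± 0.47, HIS5 minus HIS7 −0.11 ± 0.54 and HIS7 minus HIS2 −0.39 ± 0.48, and the ranges overlapped in each. With 3 arrays an exact two-sided sign-flip permutation test cannot go below p = 0.25. HIS1 with HIS6 and HIS6 with HIS4 reached that value (0.625 after Benjamini-Hochberg adjustment over the 5 neighbouring pairs). Of all 15 pairs, 11 kept the same order on all 3 arrays and 10 had ranges that did not overlap. Pairs share genes, and every pair with HIS1 or HIS6 is in each count. Among the other members only HIS4 and HIS2 had ranges that did not overlap.

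Each array gave up to 2 readings of a spot. HIS2, HIS4 and HIS5 had a value in all 6 scans, HIS1 in 5, and HIS6 and HIS7 in 4. HIS1 read −2.08 and −2.23 before centring in the high and low scans of array 1, −2.02 in the high scan of array 2, and −2.05 and −2.27 in the high and low scans of array 3. Every reading of HIS1 was thus −2.02 or lower. HIS6 and HIS7 had both scans on array 3 only, and there the scans were apart: HIS6 read −1.59 at high and −1.07 at low power, and HIS7 −0.45 at high and 0.06 at low power. Across all spots the median gap between scans was 0.12 and the 95th percentile 0.42. HIS2 on array 2 had the widest gap of the members, with −0.22 at high and 0.31 at low power, and its value above 0 there came from the low-power scan. With the high-power scans alone HIS7 stood at −0.58 (limma adjusted p = 0.0122), HIS6 at −1.44 and HIS2 at −0.22, and the calls of all 6 members were as above.

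**Figure D3:**
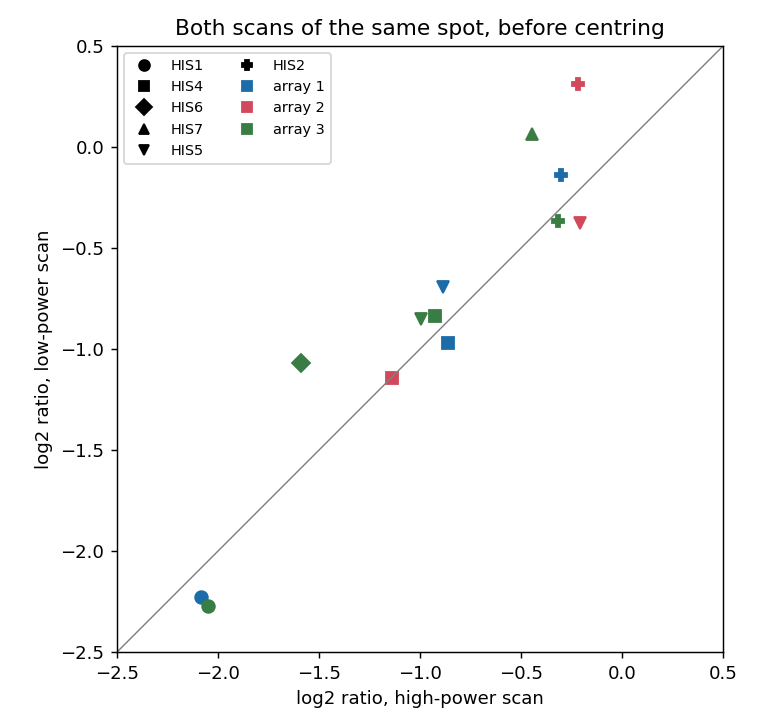
Log2 ratio of the same spot in the low-power scan (vertical axis) against the high-power scan (horizontal axis), before centring, for the 13 pairs of readings of the histidine genes, with the line of equality in grey. Of these, 10 pairs differ by less than 0.3, and HIS2 on array 2, HIS6 on array 3 and HIS7 on array 3 lie farthest from the line.

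The regulators of the HIS genes were described by counts, from a list chosen with earlier results known. Of 12 tested genes of the general control of amino acid synthesis, 8 were lower, 1 was higher and 3 did not pass, with a median of −0.996. Over all genes tested, 24.2% were lower. The list holds genes that act for and against Gcn4, so its count and median give no direction of regulation. GCN4, the gene of the activator, had −0.81, −0.60 and −0.55 on arrays 1, 2 and 3, a mean of −0.65 ± 0.14 (SD, n = 3; limma adjusted p = 0.00453). It lost its call without replicate 1 (mean −0.57, limma adjusted p = 0.0577). Gcn4 is controlled largely at translation, which these transcript ratios do not measure. GCN2, the kinase gene that starts the response, had −0.08 and −0.13 on arrays 1 and 3 and no value on array 2, so it was not tested.

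Of the 8 falls in that list, 6 were of initiation factor genes, through which Gcn2 acts on GCN4. The genes of the eIF2B subunits GCD6 (−1.38 ± 0.47), GCD1 (−1.32 ± 0.28) and GCN3 (−1.20 ± 0.17) fell, as did those of the eIF2 subunits SUI2 (−1.19 ± 0.37), SUI3 (−1.06 ± 0.26) and GCD11 (−0.93 ± 0.21). GCD7, also of eIF2B, was at −0.37 ± 0.20 and did not pass (limma adjusted p = 0.0525), and GCD2 had values of −0.73 and −0.15 on arrays 1 and 3 only. GCN20, whose product helps to activate Gcn2, fell by 1.21 ± 0.41. PCL5, the cyclin gene whose product promotes the breakdown of Gcn4, rose by 0.63 ± 0.34 (limma adjusted p = 0.0127), but it lost its call without replicate 1, where it stood at 0.44 (adjusted p = 0.108). PHO85 (0.08 ± 0.11), the gene of the partner kinase of Pcl5, and YIH1 (−0.04 ± 0.20), whose product inhibits Gcn2 activation, did not pass. MBF1, the gene of a coactivator of Gcn4, had 0.43 and 0.01 on arrays 1 and 3 only.

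Of the other transcription factors of HIS genes, ABF1 fell by 0.90 ± 0.21 (limma adjusted p = 0.00157), while PHO2 (0.05 ± 0.29) and RAP1 (0.03 ± 0.26) did not pass. BAS1 had a value on array 3 alone, −0.23.

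PRPP, glutamate and glutamine enter the pathway from outside it. Among the PRPP synthetase genes, PRS3 (−1.14 ± 0.14), PRS5 (−0.85 ± 0.19) and PRS4 (−0.63 ± 0.21) fell and PRS2 was at −0.16 ± 0.31 without passing. That makes 3 lower of 4 tested, beside 24.2% of all genes tested. PRS4 lost its call without replicate 1 (mean −0.55, limma adjusted p = 0.0742). In that fit 2 of the 4 PRPP synthetase genes were lower, and 13.1% of all genes tested. PRS1 had −1.48 and −1.32 on arrays 1 and 3 and none on array 2.

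GDH1, the main gene of glutamate synthesis from ammonium, fell by 2.02 ± 0.11, close to HIS1, with −2.05, −2.11 and −1.89 on arrays 1, 2 and 3. Its isoenzyme gene GDH3 rose by 0.66 ± 0.28 (limma adjusted p = 0.00817), a call lost without replicate 1 (0.50, adjusted p = 0.0825), and the similar sequences may share signal. GLN1, the gene of glutamine synthetase, stood at −1.07 on arrays 1 and 3 and had no value on array 2. Of the genes that return AICAR to purine synthesis, ADE17 fell by 1.35 ± 0.08 whereas ADE16, a close relative whose spot may share signal, was at −0.06 ± 0.18 and did not pass (limma adjusted p = 0.718).

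HTS1, the gene of the histidyl-tRNA synthetase, fell by 0.67 ± 0.18 (limma adjusted p = 0.00481), and it lost its call without replicate 1 (mean −0.57, adjusted p = 0.0600). HIP1, the gene of the high-affinity histidine permease of the plasma membrane, went the other way. It had 0.87, 1.24 and 1.02 on arrays 1, 2 and 3, a mean of 1.04 ± 0.19 (SD, n = 3; limma adjusted p = 0.000761), or 2.06 times the untreated level. All 3 values of HIP1 were above 0 and apart from those of every histidine synthesis gene. Of the vacuolar transporter genes for basic amino acids, VBA1 was at −0.05 ± 0.31 and did not pass. VBA2 rose by 0.52 ± 0.44 (limma adjusted p = 0.0430) and VBA3 by 0.55 ± 0.52 (adjusted p = 0.0490). The call of VBA2 was lost whichever replicate was left out, with means between 0.27 and 0.68, and that of VBA3 without replicate 1 (0.64) or replicate 3 (0.26).

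**Figure D4:**
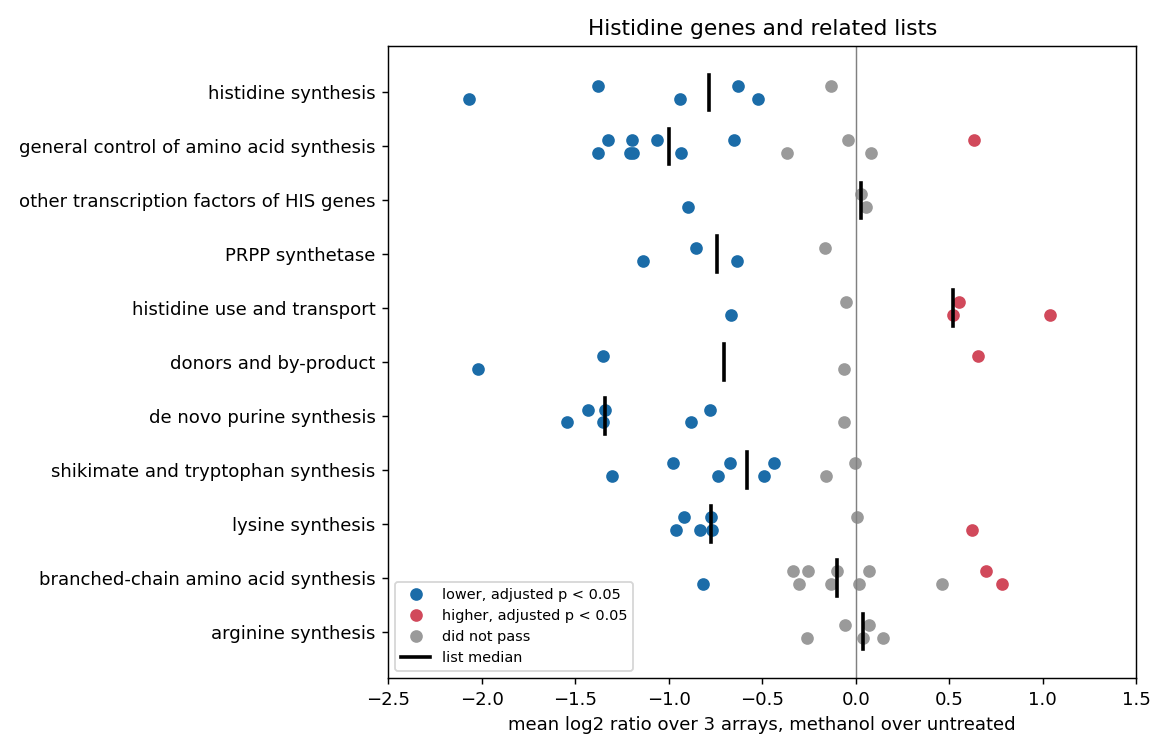
Mean log2 ratio of methanol over untreated over 3 arrays (horizontal axis) of each tested gene (points, blue for lower, red for higher and grey for not passing at an adjusted p of 0.05) in the histidine list and 10 related lists, with black bars at the list medians. ADE16 and ADE17 appear in 2 lists. Histidine, purine, lysine and tryptophan genes lie mostly below 0, and arginine and branched-chain genes lie around 0.

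Set beside other synthesis pathways, histidine synthesis had 5 of 6 tested genes lower with a median of −0.78, and 24.2% of all genes tested were lower. De novo purine synthesis had 6 of 7 lower and a median of −1.34, led among tested genes by ADE2 (−1.54 ± 0.24) and ADE12 (−1.43 ± 0.07). ADE4 (−1.99 and −1.13) and ADE8 (−0.46 and −0.28) had values on arrays 1 and 3 only and were not tested. Shikimate and tryptophan synthesis had 6 of 8 lower and a median of −0.58, with TRP3 at −1.30 ± 0.11 and ARO2 at −0.97 ± 0.06 as its largest falls. Without replicate 1, 3 of those 8 were lower, and 13.1% of all genes tested. Lysine synthesis had 5 of 7 lower, 1 higher and a median of −0.78, with LYS4 (−0.96 ± 0.06) and LYS12 (−0.92 ± 0.11) lowest of those tested. LYS9 had −1.53 and −1.51 on arrays 1 and 3 only and was not tested. Not every pathway listed was mostly lower. Of 5 arginine synthesis genes 0 were lower and 0 higher (median 0.04). Among 11 branched-chain genes 1 was lower, 2 were higher and 8 did not pass (median −0.10). In the branched-chain list BAT1 was at −0.82 ± 0.44 and LEU2 at 0.78 ± 0.44, and each lost its call without replicate 1 (adjusted p = 0.0722 and 0.0685), as did BAT1 without replicate 3 (0.0548). LEU4, the other higher gene, was at 0.70 ± 0.14 and kept its call whichever replicate was left out. In that list 0 genes were lower without replicate 1 or 3, where 13.1% and 17% of all genes tested were. Without centring of the arrays 3 of the list were lower, and 26.7% of all genes tested. Without replicate 2, 1 of 6 arginine genes was lower, and 21.8% of all genes tested. List genes without a named spot included HIS3, GCN1, ARO1 and ARG7. Differences between the pathways were not tested.

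The histidine genes are scattered over the genome, and the reference gene table gives the genes next to each. Beside HIS1, GIP2 was at 0.13 ± 0.16 and FCY2 at −0.45 ± 0.38, and neither passed. HIS5 lies between PRM5 (0.33 ± 0.28) and NUP159 (0.05 ± 0.26), which did not pass, and HIS2 is next to LSB3 (0.08 ± 0.11), which did not either. Next to HIS6, RPB3 fell by 0.79 ± 0.34 and FAF1 had values on arrays 1 and 3 only (−0.67 and 0.14). HIS7 adjoins ARO4, a gene of aromatic amino acid synthesis, which fell by 0.44 ± 0.11, a call lost without replicate 1 (adjusted p = 0.146) or replicate 3 (0.105), and ENP1, with −0.69 and −0.50 on arrays 2 and 3 only. HIS4 adjoins RRP7, at −0.41 ± 0.10 (limma adjusted p = 0.0270, lost whichever replicate was left out), and BIK1, with −0.88 and −0.40 on arrays 1 and 3 only. Beside the unmeasured HIS3, DED1 fell by 0.63 ± 0.23, a call lost without replicate 1 or 3 (adjusted p = 0.0780 and 0.0587), and MRM1 had −0.28 and 0.19 on arrays 1 and 3.

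The genes whose 3 values were nearest to those of HIS1, by root mean square difference over the 3 arrays, were ASN1 (0.11 log2 units), GDH1 (0.16), GUA1 (0.18), MES1 (0.19) and HRI1 (0.23). ASN1 encodes an asparagine synthetase, GUA1 the GMP synthetase and MES1 the methionyl-tRNA synthetase. The mean of the 6 histidine genes was −1.03, −0.85 and −0.95 on arrays 1, 2 and 3. Nearest to that profile were ECM1 (0.04), ARO2 (0.04), LYS4 (0.05), RPL1B (0.07) and SRM1 (0.07).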

How the data were processed

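The deposited values are log2 ratios, 1 column per scan, from 2-colour arrays. The log base is assumed. LOWESS was applied by the authors to spots of flag 0, per the labels, and the scans were also merged in GeneSpring, a value not used here. Intensities, promoter sequences and protein sequences were not used here, so no background filter was possible. Of 6912 spots, 5446 had 1 gene, 0 several and 1466 none, and all 5446 matched the reference gene table.

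Scans were averaged per spot, spots per gene, and arrays centred on the median gene (−0.05, −0.05 and −0.02 before). limma 3.58.1 (R 4.3.3) tested the 4336 genes measured on every array (intercept against 0, Benjamini-Hochberg over all genes, called under 0.05). Adjusted p-values of genes are all from this fit or its alternatives. Members, lists and alternatives were chosen with earlier results of these data known. The named genes are all members, regulators, suppliers and users on fixed lists, in other pathways the 2 called genes with the largest change, adjacent genes, and the 5 nearest profiles. LEU4 and some genes that could not be tested are named in addition. The number of arrays limits the precision. Alternatives were the laser power, the centring, the genes tested, the averaging of spots, the variance model and leaving out each replicate.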

Additional observations from a re-analysis of the deposited data

How the results depend on the processing

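HIS1, HIS4 and HIS6 kept their direction and their call under every alternative in which they could be tested, and HIS2 passed under none. With each replicate left out in turn, HIS1 lay between −2.12 and −2.04, HIS2 between −0.24 and −0.04, HIS4 between −0.98 and −0.86, HIS5 between −0.82 and −0.49, HIS6 between −1.42 and −1.35 and HIS7 between −0.70 and −0.32. HIS5 and HIS7 each lost the call in 2 of these 3 fits. The number of lower members then ran from 3 (without replicate 1) to 4. Over all genes tested, 13.1%, 21.8% and 17% were lower without replicates 1, 2 and 3. With the low-power scans alone, or only genes with a value in all 6 scans, 3 members could be tested, of which 2 were lower. The member medians were −0.62 and −0.63, and 28.4% and 32.4% of all genes tested were lower in these settings. Without centring, 3 branched-chain genes were lower, and 26.7% of all genes tested. With a replicate left out, the lower genes ran from 0 to 1 for histidine use and transport, from 3 to 6 for shikimate and tryptophan synthesis, from 0 to 1 for arginine synthesis and from 0 to 1 for branched-chain synthesis. Each member had 1 spot, so the averaging of spots could not change its result. The robust variance model and the choice of genes tested could change the adjusted p of a member but not its mean. A result was kept with the same direction and side of the threshold, or a count within 1.5 times. The member median was kept within 0.06, its SD over the 3 arrays. Of 152 comparisons with an alternative, 137 kept the result, and some of these could not have differed. The others rest on fewer members or arrays, except the branched-chain count without centring, which holds the same genes and arrays. The cause was not tested. The series has 1 group of ratios, and each ratio already sets a treated culture against the untreated culture on the same array.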
